A study of Rattus norvegicus with 8 samples.

Results

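The contractile genes of smooth muscle described here are 10 rat genes: the actins Acta2 and Actg2, the smooth muscle myosin heavy chain Myh11, the myosin regulatory light chain Myl9, the actin-binding proteins Tagln, Cnn1 and Cald1, the tropomyosins Tpm1 and Tpm2, and desmin, Des. They are 10 of the 4736 genes that the array names through a probe set of their own. All probe sets annotated to 1 of the 10 symbols alone were taken, which gave 20 of the 8740 probe sets that are not control features of the array. Only probe sets at or above the 40th percentile of signal on 2 or more of the 8 arrays were tested. This kept 19 of the 20, covering 9 genes, and left out Des. A further 4 probe sets named a member together with another gene and were left out by the rule.

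The arrays were Affymetrix rat U-34A chips hybridised with RNA from rat pulmonary artery smooth muscle cells (RPaSMC). These were primary cultures that grew out of pulmonary artery explants, stripped of endothelium and adventitia, from adult Sprague-Dawley rats, and all 4 groups shared this origin. Cells received S-nitrosoglutathione (GSNO), a compound that releases nitric oxide, for 1, 2 or 4 h, or were left untreated, with 2 arrays a group numbered 1 and 2. The GSNO concentration is 100 μmol/L in the series design and 100 mmol/L in the sample protocols, and neither was taken as settled. No time in culture is given for the untreated cells. The design mentions 2 independent preparations but does not say that the array number is the preparation, so the p-values may measure only the spread between arrays. The number of arrays limits the precision. In RNA from a whole culture, fewer cells of a type and less RNA per cell cannot be told apart.

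Smooth muscle contracts when phosphorylated myosin pulls on actin filaments that tropomyosin lines and that caldesmon, calponin and transgelin bind. Serum response factor and its partner myocardin switch on most of these genes through CArG boxes, short A/T-rich elements flanked by CC and GG. Cultured smooth muscle cells can lose contractile gene expression, and Klf4 is known as a repressor of that programme.

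In GSNO-treated and control cells alike, the probe sets of most contractile genes gave signals well above the array medians, which lay between 100.0 and 141. Des did not, and Actg2 did so only on the arrays numbered 1. The weak probe sets rc_AI144767_s_at of Tpm1 (20.2 to 357) and X16261_i_at of Myh11 (120.2 to 549) lay below the median on some arrays. At 1, 2 and 4 h of GSNO, limma called 0 of the 19 tested probe sets at an adjusted p under 0.05. The background over all 5877 kept probe sets was 0.527% at 1 h, 0.970% at 2 h and 1.53% at 4 h. At an unadjusted p under 0.05 there were 0, 0 and 2 contractile probe sets at these times, beside 177, 360 and 654 of all 5877. In a fit that also held the array number, as a replicate block, 0, 0 and 2 were called, against backgrounds of 1.34%, 3.16% and 7.93%. In that fit 2, 2 and 5 of 19 had an unadjusted p under 0.05, beside 337, 712 and 1244 of all 5877. The 2 called at 4 h, a Tpm1 probe set and a Myh11 probe set, were both lower with GSNO, where the background for lower calls was 3.68%. No single array could be left out without changing this count. It rose without the 4 h array numbered 2 and fell without any other array. The shares over all kept probe sets in those fits are not reported here.

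**Figure D1:**
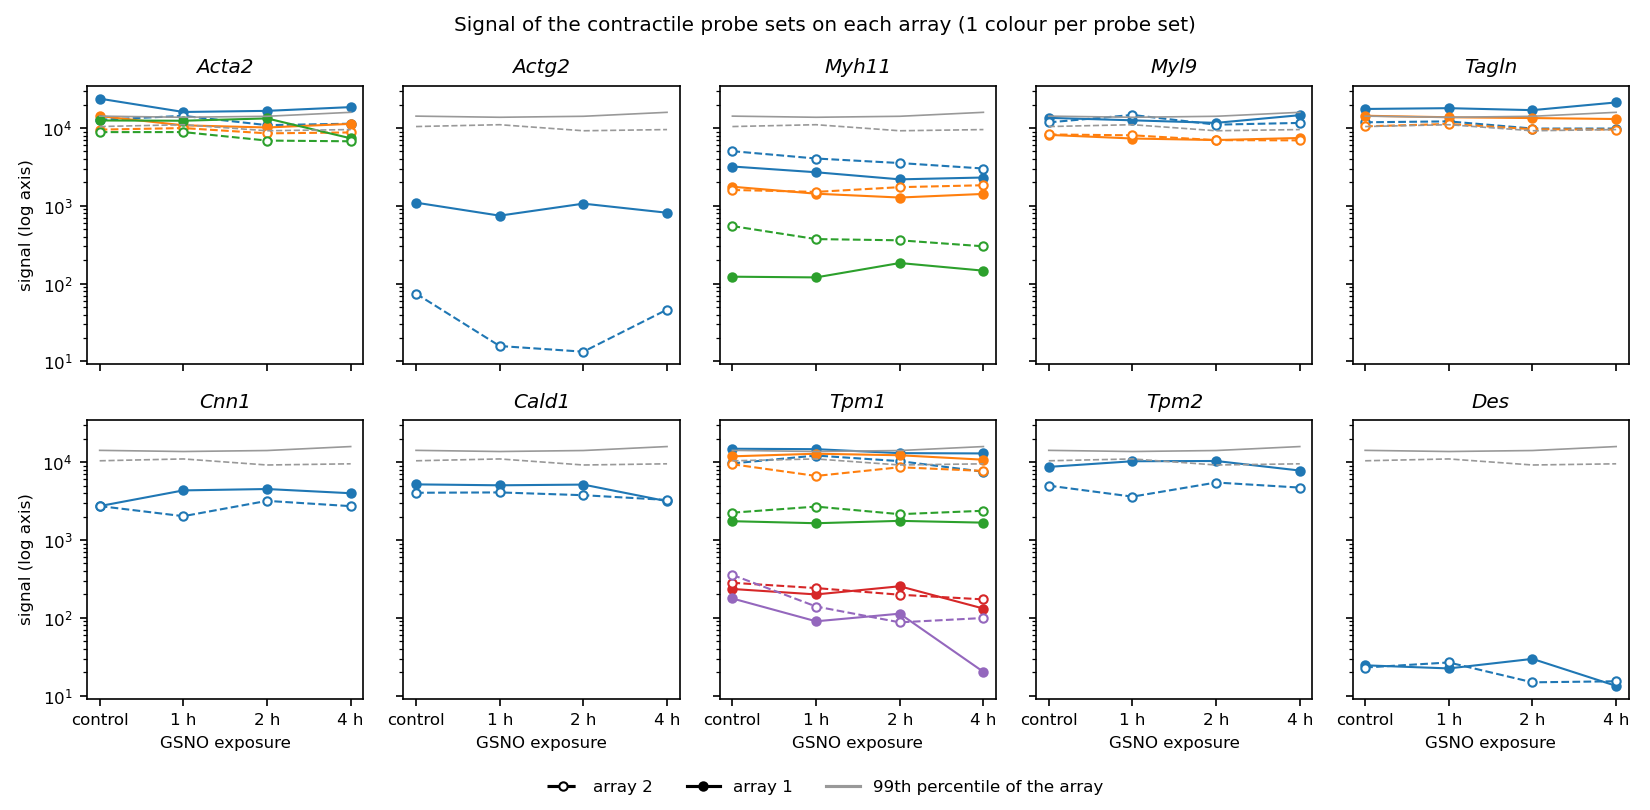
Signal (log axis) of each contractile probe set in control cells and after 1, 2 and 4 h of GSNO, with 1 colour per probe set within a gene, open symbols and dashed lines for the arrays numbered 2, and filled symbols and solid lines for those numbered 1. Grey lines mark each array's 99th percentile, which probe sets of Acta2, Tagln, Myl9 and Tpm1 reached, while Des lay between 13.4 and 29.7 and the 2 array numbers were far apart for Actg2.

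Acta2 encodes smooth muscle alpha-actin, the main actin of vascular smooth muscle. Its upstream region is shown because it holds the element through which serum response factor acts on this gene family. The 250 bases before the annotated start, from RefSeq build GRCr8 at chr1:241172504-241172753 on the minus strand, are given 5′ to 3′.
Acta2: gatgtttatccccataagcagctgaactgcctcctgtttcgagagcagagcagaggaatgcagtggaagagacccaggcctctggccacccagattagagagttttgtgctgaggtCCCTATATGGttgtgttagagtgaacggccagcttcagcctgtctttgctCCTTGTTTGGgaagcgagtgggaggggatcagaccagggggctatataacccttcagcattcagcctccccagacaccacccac
The capitals mark CArG-type boxes, searched as CC, 6 bases of which at least 5 are A or T, then GG, a form that reads the same way on both strands. They lie 134 to 125 and 84 to 75 bases before the start. Of 33469 upstream windows of 250 bases, 8.08% held at least 1 such box and 0.693% held at least 2. Promoter entries were matched for 7 of the 10 genes (8 windows, 2 of them for Cald1), and the Acta2 window was the only 1 of these 8 with a box. With all 6 central bases required to be A or T, 1.5% of the windows and 0 of the 8 held a box. No entry was matched for Myh11, Myl9 and Tagln. A match describes the letters of a window and says nothing of binding.

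Acta2 had 3 probe sets and none was called at any time. X06801cds_i_at on the arrays numbered 2 had a signal of 12757 in control cells, 14316 at 1 h, 10882 at 2 h and 11351 at 4 h. On the arrays numbered 1 it had 23826 in control cells, 16066 at 1 h, 16599.5 at 2 h and 18548.5 at 4 h. The arrays numbered 2 were thus lower in every group, and the groups overlapped. At 4 h the log2 fold change was -0.26 (95% interval with the block -0.66 to 0.13, adjusted p = 0.433). This probe set lay above the 99th percentile on all 8 arrays, at 53.4% to 86.2% of the array's highest signal. X06801cds_f_at, from the same transcript sequence, gave -0.23 at 4 h (-0.57 to 0.12) and reached the 99th percentile on 1 array. The third, rc_AA900769_s_at, stayed under it on all arrays.

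For rc_AA900769_s_at the signal on the arrays numbered 2 was 8853 in control cells, 8862 at 1 h, 6889 at 2 h and 6747 at 4 h. On those numbered 1 it was 12496, 12394, 13280.0 and 7370 in the same order of groups. Both 4 h values were below both control values. The 4 h log2 fold change was -0.58 (95% interval with the block -0.99 to -0.16), with an adjusted p of 0.626 without the block and 0.108 with it. Without the 4 h array numbered 2 it was -0.83 and was called with the block (adjusted p = 0.0343). Whether signal near the top of the scale is compressed in the other Acta2 probe sets was not tested.

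Actg2, the gamma-actin of visceral smooth muscle, had 1 probe set (M22323_at) and differed far more between array numbers than between groups. Its signal on the arrays numbered 2 was 74.4 in control cells, 15.8 at 1 h, 13.3 at 2 h and 46.4 at 4 h. For number 1 it was 1098 in control cells, 747 at 1 h, 1066 at 2 h and 815 at 4 h. The highest value on number 2 was below the lowest on number 1. Against control, the log2 fold changes were -0.96 at 1 h, -0.76 at 2 h and -0.46 at 4 h. Their standard error was 2.09 without the block and 0.36 with it, and none was called (adjusted p with the block 0.627 at 1 h, 0.458 at 2 h and 0.4998 at 4 h).

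The thick filament was represented by Myh11, the motor of smooth muscle contraction, and Myl9, the light chain whose phosphorylation turns it on. Myh11 had 3 probe sets that did not behave alike. X16262_s_at on the arrays numbered 2 had 5037 in control cells, 4053 at 1 h, 3546 at 2 h and 3014 at 4 h. On the arrays numbered 1 it had 3199, 2699, 2187 and 2310.0 in the same order. All GSNO arrays were below the control array of the same number, and the 4 h values, 3014 and 2310.0, were both below the lower control value. The 4 h log2 fold change was -0.60 with a standard error of 0.36 and an adjusted p of 0.612 without the block, and a standard error of 0.16 and an adjusted p of 0.0434 with it (95% interval -0.95 to -0.25). When the block was the recorded experiment, the 4 h value was -0.70 and was not called (adjusted p = 0.128). Of the arrays numbered 1, control and 2 h belong to 1 recorded experiment and 1 h and 4 h to another, while all arrays numbered 2 share 1. At 2 h it was -0.52 (adjusted p with the number as block 0.144) and at 1 h -0.28 (0.999). Lower values at all 3 times on both array numbers were seen in 4 of the 19 tested probe sets, beside 12.7% of all kept probe sets. They were this one, Actg2, S77900_g_at of Myl9 and rc_AI144767_s_at of Tpm1.

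The other Myh11 probe sets did not repeat that difference. S61948_s_at had 1598, 1510, 1736 and 1838 on the arrays numbered 2 in control cells and at 1, 2 and 4 h, and 1759, 1431, 1277 and 1421 on those numbered 1. Its 4 h value was higher than control on number 2 and lower on number 1, and the log2 fold change was -0.05 (95% interval with the block -0.47 to 0.37). X16261_i_at had 549, 374, 360.3 and 302 on the arrays numbered 2, and 123, 120.2, 184 and 147 on those numbered 1, with a 4 h log2 fold change of -0.30 (-0.99 to 0.39). The 4 h call for Myh11 therefore rests on 1 of 3 probe sets.

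Neither Myl9 probe set was called at any time. S77900_at lay between 11033 and 14707 on the 8 arrays, with a 4 h log2 fold change of 0.05 (95% interval with the block -0.31 to 0.41), and was above the 99th percentile on 4 arrays. S77900_g_at lay between 6938 and 8254, with -0.19 at 4 h (-0.51 to 0.13), and was below the control array of the same number at all 3 times.

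Among the proteins that bind the actin filament, Tagln (transgelin, also called SM22) gave log2 fold changes close to 0. M83107_g_at had 11841, 12161, 9837 and 9838 on the arrays numbered 2 in control cells and at 1, 2 and 4 h. On those numbered 1 it had 17559.9 (control), 17978 (1 h), 16958 (2 h) and 21306 (4 h). It was above the 99th percentile on all 8 arrays, at 56.0% to 72.5% of the array's highest signal, and the 4 h log2 fold change was 0.01 (95% interval with the block -0.36 to 0.38). M83107_at, above that percentile on 5 arrays, gave -0.14 (-0.45 to 0.17).

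Cnn1 encodes calponin, a thin filament protein of differentiated smooth muscle, and its probe set D14437_s_at had the highest estimates of all members at 2 h and 4 h. The control signal was 2732 on both arrays. On the arrays numbered 2 it was 2026 at 1 h, 3188 at 2 h and 2726 at 4 h. For number 1 it was 4346, 4526 and 3996. The 2 numbers disagreed in direction at 1 h. The log2 fold changes of 0.12, 0.47 and 0.27 at 1, 2 and 4 h were not called, and the 4 h value was -0.01 when the experiment named in the array records was the block.

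Cald1, caldesmon, which restrains myosin's action on actin, had 4052, 4093, 3769 and 3277 on the arrays numbered 2 in control cells and at 1, 2 and 4 h, and 5192, 5053, 5159.7 and 3154 on those numbered 1. The 1 h and 2 h values stood close to control, while both 4 h values were below all the others. The 4 h log2 fold change was -0.51 (95% interval with the block -0.88 to -0.14), with an adjusted p of 0.544 without the block and 0.109 with it. Scaling the arrays to a common median moved it to -0.29. Without the 4 h array numbered 2 it was -0.72 and was called with the block (adjusted p = 0.041).

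Tpm1 and Tpm2 encode tropomyosins, and Tpm1 makes muscle and non-muscle forms by alternative splicing. Its 5 probe sets gave unlike results, and the files do not say which splice form each reads. The weakest, rc_AI144767_s_at, had 357 in control cells, 139.9 at 1 h, 87.6 at 2 h and 99.6 at 4 h on the arrays numbered 2. On those numbered 1 it had 177, 90.3, 113 and 20.2. Every GSNO array was below both control arrays. The 4 h log2 fold change was -1.96, with a standard error of 0.56 and an adjusted p of 0.172 without the block, and 0.43 and 0.0207 with it (95% interval -2.91 to -0.998). It was -1.03 at 1 h and -1.18 at 2 h (adjusted p with the block 0.813 and 0.267). When the block was instead the experiment named in the array records, the 4 h value was -1.59 (adjusted p = 0.183). The 4 h array numbered 1, with the signal of 20.2, was the only array on which it fell below the 40th percentile.

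X02412_at of Tpm1 was also weak, with 282, 241, 198 and 173 on the arrays numbered 2 in control cells and at 1, 2 and 4 h, and 235, 200.001, 255 and 132 on those numbered 1. Both 4 h values were below both control values, with a log2 fold change of -0.70 (adjusted p = 0.427 without the block and 0.181 with it). The 3 brighter Tpm1 probe sets had smaller 4 h values: -0.28 for M15474cds_s_at (7551 to 14901 over the arrays), -0.21 for M60666_s_at (6664 to 12859) and 0.01 for M34134_s_at (1645 to 2691). M15474cds_s_at was above the 99th percentile on 4 arrays. Tpm2 (L00382cds_at) had 5002, 3612, 5488 and 4722 on the arrays numbered 2, and 8713, 10297, 10372 and 7820 on those numbered 1, in control cells and at 1, 2 and 4 h. Its log2 fold changes were -0.11, 0.19 and -0.12, and the 2 numbers disagreed in direction at 1 h.

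Des encodes desmin, the muscle intermediate filament protein. The signal of X73524_at on the arrays numbered 2 was 23.0 in control cells, 26.7 at 1 h, 14.8 at 2 h and 15.3 at 4 h. For number 1 it was 24.6, 22.4, 29.7 and 13.4. It was below the 40th percentile on 8 of 8 arrays and was not tested. The deposited values hold no detection calls, so whether it was above background is not known here.

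**Figure D2:**
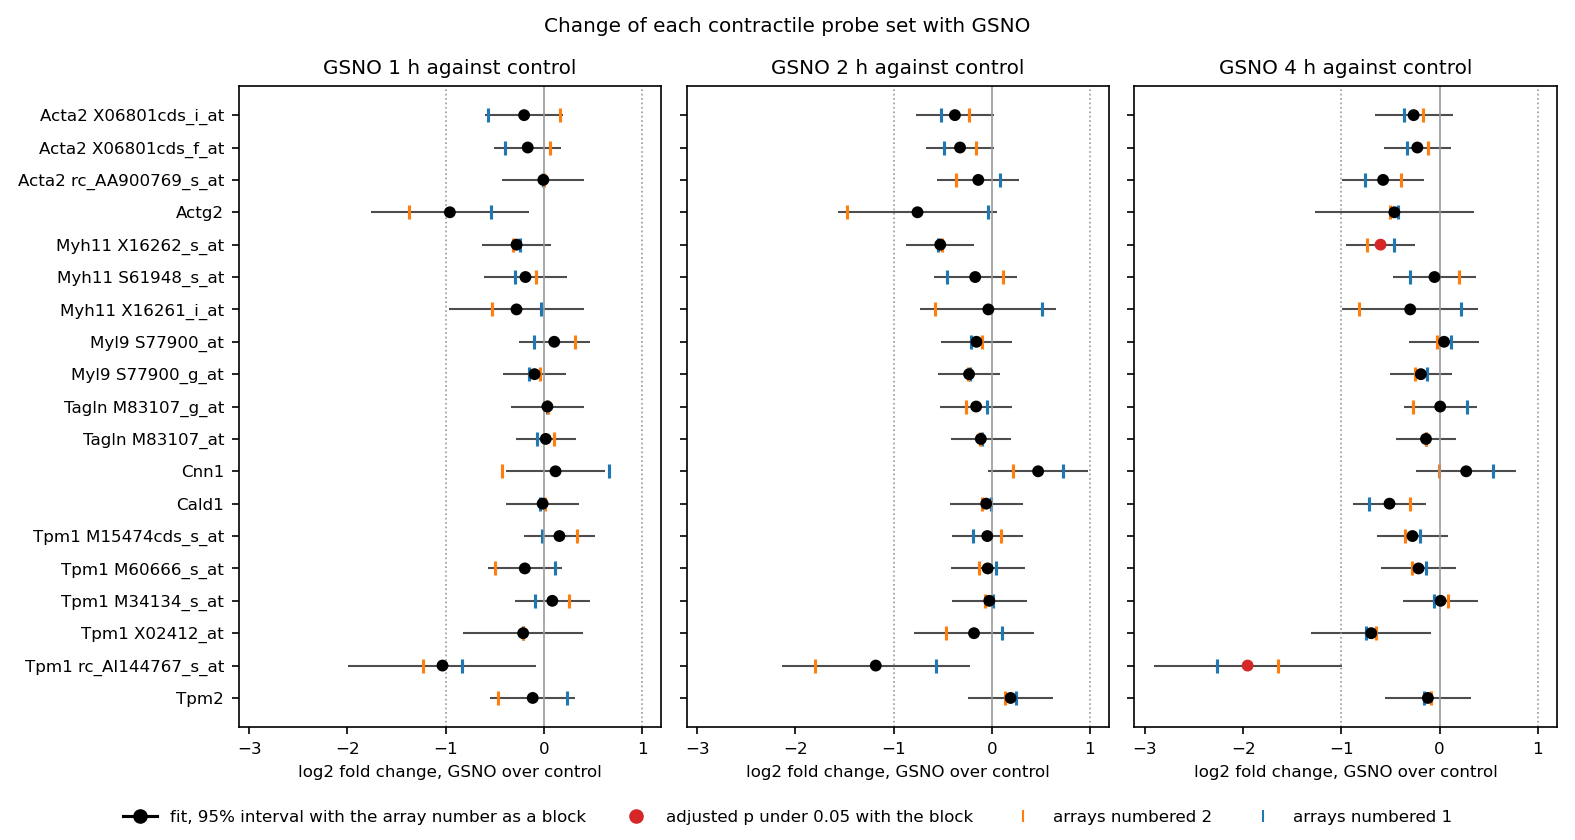
Log2 fold change of each tested contractile probe set after 1, 2 and 4 h of GSNO over control, as the fitted value with its 95% interval from the fit with the array number as a block, and the pair of arrays of each number as ticks; dotted lines mark 2-fold. Most values lie near 0, and the red points at 4 h are Myh11 X16262_s_at (-0.60) and Tpm1 rc_AI144767_s_at (-1.96).

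The precision of these estimates differed between members. With the block, the 95% interval lay wholly within 2-fold of control for 17 of 19 contractile probe sets at 1 h, 17 at 2 h and 16 at 4 h. The shares over all kept probe sets were 65.7%, 58.7% and 49.5%. Without the block the counts were 10, 11 and 6, against 43.3%, 38.1% and 30.2%. The half-width of the interval ran from 0.31 to 0.96 on the log2 scale. A p above the threshold does not show that a gene did not differ.

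Small decreases were common, as they were over the whole array. The median log2 fold change of the 19 was -0.11 at 1 h, -0.16 at 2 h and -0.23 at 4 h, beside -0.05, -0.06 and -0.16 over all kept probe sets. At 1, 2 and 4 h, 13, 17 and 15 of 19 were negative, beside 57.5%, 57.2% and 64.6% of all. Lower values on both array numbers were seen in 7, 10 and 13 of 19 at 1, 2 and 4 h, beside 31.4%, 34.7% and 42.8% of all, and higher values on both in 1, 2 and 0, beside 21.3%, 24.3% and 20.9%. With every array scaled to a common median, the 4 h medians were -0.01 for the contractile probe sets and 0.04 for all, and 10 of 19 were negative. With quantile normalization they were -0.20 and -0.06, and 17 of 19 were negative. At 1 h and 2 h, 11 and 17 of 19 were negative with the common median, and 15 and 15 with quantile normalization. Against control the contractile median lay below that of all probe sets under each of these scalings. Between exposure times, with the signals as deposited, it lay above at 4 h against 1 h (-0.06 beside -0.13) and against 2 h (-0.08 beside -0.09). It lay below at 2 h against 1 h (-0.13 beside -0.01). Whether scaling accounts for the small decreases was not tested.

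Between exposure times, limma called 0 of 19 contractile probe sets at 4 h against 1 h (background 0.476%), at 4 h against 2 h (0%) and at 2 h against 1 h (0%). None had an unadjusted p under 0.05 in these comparisons. With the block 0 were called in each, where the backgrounds were 5.10%, 0.544% and 0.0340%, and 3, 2 and 0 had an unadjusted p under 0.05. An F test over the 3 times against control called 0 (background 1.14%), with 1 at an unadjusted p under 0.05, and 0 with the block (5.94%), where 4 had an unadjusted p under 0.05.

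The array number was compared directly after the per-array values had been seen, as a term in the fit beside the group. The recorded scan day changed with the number, the arrays numbered 2 came from 1 chip lot and those numbered 1 from 2 other lots, so number, day and lot cannot be told apart, nor can the preparation. Of the 19 contractile probe sets, 12 differed, where the background was 21.7%. Of these, 3 were higher on number 2 (background 13.3%) and 9 were lower (8.42%). The count of 12 became 7 with scaling to a common median and 6 with quantile normalization, and was lower when any 1 array was left out. The shares over all kept probe sets under these settings are not reported here, so these counts have no background.

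Actg2 averaged 37.5 ± 28.8 on the arrays numbered 2 and 931 ± 176 on those numbered 1 (SD over the 4 groups, n = 4 each). The log2 difference of -4.14 ± 0.26 (SE, adjusted p = 1.58e-05 in limma) is 17.6-fold on the log2(signal + 21.1) scale, and Actg2 was lower on number 2 in 4 of 4 groups. It was below the 40th percentile on 3 of the 4 arrays numbered 2 and on 0 of the 4 numbered 1, so it passed the filter mainly through number 1, and the size of the fold depends on the offset. The mean signals differ 24.9-fold, and with an offset of 1 the log2 difference was -4.92. Acta1, the skeletal muscle alpha-actin and close relative, had signals of 57.6 to 140.2 on the arrays numbered 2 and 491 to 655 on those numbered 1 (-2.42, adjusted p = 5.60e-05). Among the markers of cardiac and skeletal muscle, 4 of 21 kept probe sets were lower on number 2 (background 8.42%) and 1 was higher (13.3%). Their summed signal was 3434 to 4550 on the arrays numbered 2 and 4055 to 6987 on those numbered 1, while Actc1, the cardiac actin, did not pass the filter. Their part in the Actg2 difference was not tested.

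Tpm2 and Myh11 also differed between the numbers, in opposite directions. Tpm2 was lower on number 2 (-0.99, adjusted p = 0.00151). Myh11 was higher on number 2 with X16261_i_at (1.33, adjusted p = 0.00304) and X16262_s_at (0.58, adjusted p = 0.00576), and S61948_s_at gave 0.19 (adjusted p = 0.363). With scaling to a common median the adjusted p of X16262_s_at was 0.0531. The third higher probe set was M34134_s_at of Tpm1 (0.46, adjusted p = 0.0221).

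The remaining 7 lower calls were of probe sets of Tagln (-0.76 and -0.42), Acta2 (-0.60 and -0.51), Tpm1 (-0.50 and -0.57) and Cnn1 (-0.54). For Cnn1 the difference was 0.0004 in control cells, and -1.09, -0.50 and -0.55 at 1, 2 and 4 h. Bright probe sets were lower on number 2 in general. All 88 kept probe sets in the top 1% by mean signal were lower there, 81 of them called, with a median of -0.60 beside 0.06 over all kept probe sets. This top 1% held 3 contractile probe sets, 2 of them called. Of the 7, the Cnn1 probe set (2026 to 4526), rc_AA900769_s_at of Acta2 and M60666_s_at of Tpm1 were under the 99th percentile on all arrays. Whether brightness accounts for the lower calls was not tested. With quantile normalization, M83107_at of Tagln moved to 0.09 and X06801cds_i_at of Acta2 to 0.0014, while Actg2 stayed at -4.14, Tpm2 at -0.72 and the 2 Myh11 probe sets at 0.59 and 1.22. The other probe sets among the 7 are not reported under that scaling. The array maxima ran from 15139 to 21709 on number 2 and from 27429 to 34714 on number 1.

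**Figure D3:**
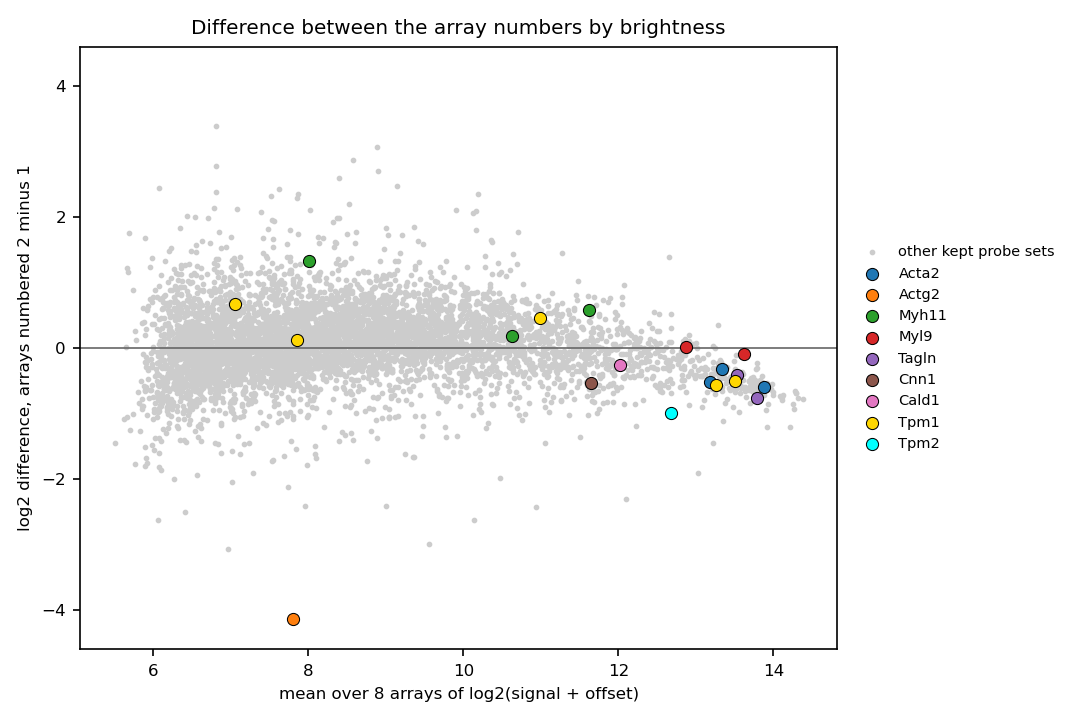
Log2 difference, arrays numbered 2 minus those numbered 1, against the mean log2(signal + 21.1) over the 8 arrays, for all 5877 kept probe sets (grey) and the contractile ones (coloured by gene). Actg2 lies at -4.14, Myh11 lies above 0 and the brightest contractile probe sets lie below 0 with the other bright probe sets.

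The contractile genes varied in different directions across the arrays. With each number's mean removed, the brightest kept probe sets of the 9 genes gave 36 pairwise correlations over 8 arrays, from -0.97 (Myl9 and Tpm2) through a median of 0.13 to 0.79 (Myl9 and Tagln). These points share arrays and scaling, so the values are a description. The mean profile of the 9 genes stood at 0.12 in control cells, -0.00 at 1 h, -0.03 at 2 h and -0.09 at 4 h on the log2 scale. The genes were not brought to a common spread, so a gene that varied widely counted for more. Actg2, weak on the arrays numbered 2, varied most between groups, with means of 8.35, 7.40, 7.60 and 7.89 in the same order. Of 3465 other genes, the 5 whose profiles were most like it were Arfrp1 (r = 0.964), Speg (0.962), Mrps6 (0.961), Ddrgk1 (0.960) and Sec11a (0.956), and 33 exceeded 0.9.

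Genes around the contractile apparatus were counted from 4 lists. The lists were chosen with earlier results of these data known, so their counts beside the backgrounds are only a description. Of the other smooth muscle differentiation genes, 21 probe sets of 13 genes were kept. At 1 h and 2 h limma called 0, with 0 at an unadjusted p under 0.05, and with the block also 0 (1 and 6 unadjusted). At 4 h 3 fell, where 0.579% of all kept probe sets did: Pln, the phospholamban that restrains the calcium pump of the sarcoplasmic reticulum (-2.89, adjusted p = 0.0448), Nexn, an actin-binding protein (-2.60, adjusted p = 0.0263), and Sorbs2, an adaptor at actin attachment sites (-2.59, adjusted p = 0.00964). Pln had 101 and 149.7 at 4 h, against 705 and 1560.2 in control cells (arrays numbered 2, then 1). Nexn had 402 and 149.1 at 4 h, against 1633 and 1574 in control cells. With the block 6 were lower (background 3.68%), the added ones being further probe sets of Nexn (-1.73) and Sorbs2 (-1.90) and Csrp2, a LIM protein (-0.76), the last of these named after its value was seen. Another Sorbs2 probe set, AF026505_at, gave -1.17 at 4 h and was not called (adjusted p in limma 0.263, and 0.0715 with the block). The median of the list was -0.62 at 4 h, beside -0.23 for the contractile probe sets and -0.16 for all.

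In the other lists most probe sets were not called. Of 21 for myosin phosphorylation and contraction control, limma called 0 at 4 h (4 unadjusted), and 3 were lower with the block, where 3.68% of all kept probe sets were. Of 18 for non-muscle and cytoskeletal relatives, 0 were called at 4 h (2 unadjusted) and 2 were lower with the block (the same background of 3.68%), Actn4, an alpha-actinin (-0.98), and Myl12b, the non-muscle counterpart of Myl9 (-1.04). The Myl12b call was of the weaker probe set X52840_r_at. The brighter D14688_s_at gave -0.33 and was not called (adjusted p in limma with the block 0.236). At 1 h and 2 h both lists had 0 called and 0 at an unadjusted p under 0.05, and 0 called with the block (0 unadjusted at 1 h in both, and 4 and 3 at 2 h). The medians at 4 h were -0.32 and -0.24.

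Among transcription factors of the smooth muscle programme, 15 probe sets of 8 genes were kept, and Srf and Myocd had no probe set. Klf4 rose with both of its probe sets at every time. L26292_at had 110.5 and 244 in control cells, 5893 and 7063 at 1 h, 7206 and 8234 at 2 h, and 5494 and 6107 at 4 h (arrays numbered 2, then 1). Its log2 fold change was 5.11 at 1 h (adjusted p = 0.0017), 5.37 at 2 h (0.000845) and 4.96 at 4 h (0.000769). Egr1, an immediate early zinc finger factor, fell with 1 of its 4 probe sets at 2 h (-2.24, adjusted p = 0.0434) and with 3 at 4 h (-2.68, -1.94 and -1.94). With the block 3 were lower at 2 h as well (-2.24, -1.65 and -1.78). The fourth, U75398_s_at, gave -1.27 at 4 h and was not called (adjusted p = 0.277). Calls in either direction made up 0.527%, 0.970% and 1.53% of all kept probe sets at 1, 2 and 4 h, and 3.16% at 2 h with the block.

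**Figure D4:**
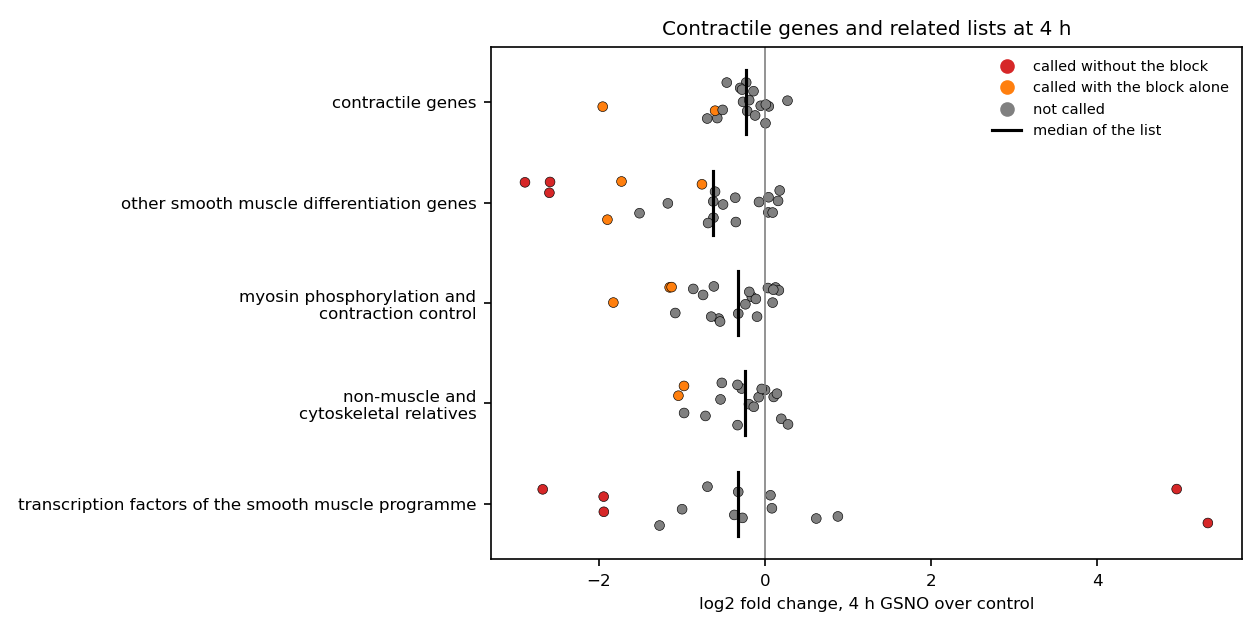
Log2 fold change at 4 h of GSNO over control for the contractile probe sets and 4 related lists, 1 point per kept probe set (vertical spread has no meaning), with a bar at the list's median. Klf4 lies at 4.96 and 5.33, 1 probe set each of Pln, Nexn and Sorbs2 lies below -2, and the contractile median is -0.23.

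The markers bore on the label of the cells. Of the smooth muscle markers, Acta2, Myh11, Tagln and Cnn1 passed the filter, Des did not, and Smtn and Lmod1 had no probe set. Vwf of endothelium and Sftpc, Sftpa1 and Scgb1a1 of lung epithelium did not pass it, while Pecam1 of endothelium had 40.2 to 129. Other markers of these lists passed it. Krt8 of lung epithelium had 203 to 339 on the arrays numbered 2 and 341 to 467 on those numbered 1. Cd14 of leukocytes had 272 to 415 on the arrays numbered 2 and 145 to 241 on those numbered 1 with AF087943_s_at. With AF087944mRNA_s_at it had 394 to 450 and 201 to 278 in the same order. Col1a2 of fibroblasts had 7107 to 9161 on the arrays numbered 2 and 11538 to 13337 on those numbered 1. The fibroblast and adventitia list kept 22 of 26 probe sets, of which 1 was called lower at 4 h (background 0.579%), with a summed signal of 87177 to 100298 at 4 h and 100408 to 113597 in control cells. The call was of a weak probe set of Dcn, X59859_i_at, named after its values were seen. It had 199.9 and 170.4 in control cells, 25.9 and 16.1 at 1 h, 372 and 158 at 2 h, and 18.5 and 16.0 at 4 h (arrays numbered 2, then 1). The endothelial list kept 7 of 15, and 2 were higher at 4 h with the block (0 called and 2 unadjusted without it), with a summed signal of 2360.4 to 4680.1 at 4 h and 1753 to 1818 in control cells. Calls in either direction with the block made up 7.93% of all kept probe sets at 4 h. Both calls, and 1 call each at 1 h and 2 h with the block, were of Thbd, thrombomodulin, named after its values were seen. Without the 2 Thbd probe sets the sum was 543 to 817 at 4 h and 933.7 to 935.4 in control cells, and 5 of the 7 kept probe sets were negative at 4 h. The leukocyte list kept 6 of 19, with a summed signal of 963 to 1414 at 4 h and 1227 to 1760 in control cells, and the epithelial list 5 of 17, with 799 to 1126 and 1031 to 1493. The part of any such cells in the contractile values was not tested.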

How the data were processed

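The deposited values are intensity values, 1 linear signal per probe set, which the authors obtained with Affymetrix GeneChip 5.0 software according to the design text. The deposited text records that came with the arrays were read as other information, for the recorded experiment, chip lot and scan day. The signals were used as deposited, since the trimmed mean was near 500.0 on every array (499.979 to 499.986). No detection calls were given. GEO's platform annotation gave the gene names, and the gene ID and symbol of 20 of 20 contractile probe sets matched the RefSeq table.

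An offset of 21.1, the median over arrays of the 20th percentile, was added before log2, which understates fold changes of weak probe sets. limma 3.58.1 in R 4.3.3 (lmFit on all 4 groups, eBayes with trend, 4 residual degrees of freedom) gave two-sided p-values, adjusted by Benjamini-Hochberg over 5877 probe sets, with a threshold of 0.05. The scripts were tested on simulated data. For arrays sharing a number, deviations from their group means correlated at 0.387 to 0.569 in all 6 pairs of groups, above 0.1, so the numbers were taken as paired from the data, and the fit with the number as a replicate block is given beside the results it changed. Alternatives changed the offset (1 or 100), filter, scaling, block, samples, variance model and arrays used.

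Every contractile probe set is named. From related lists, genes called against control are named. For transcription factors and non-muscle relatives, genes called with the block are named too. The members and lists were chosen with earlier results of these data known. Probe sets with an _s or _f suffix can match related sequences. Some results on the list for myosin phosphorylation and contraction control are not reported here.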

Additional observations from a re-analysis of the deposited data

How the results depend on the processing

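Counts of contractile probe sets called stayed at 0 in all 7 GSNO comparisons under every alternative run except 1: when the array number entered as a replicate block, 2 were called at 4 h against control. That count, with the block, was 1 with median scaling or with no filter, and 2 with quantile normalization or an offset of 1. It changed whichever 1 array was left out. The difference between the array numbers was called for 7 contractile probe sets with median scaling, 6 with quantile normalization and 7 to 11 when 1 array was left out, against 12. Under quantile normalization M83107_at of Tagln turned to 0.0892 and X06801cds_i_at of Acta2 to 0.0014. Of the log2 fold changes against control of 1 probe set per gene, the brightest, 481 kept their side of the threshold and moved less than the spread between replicates, 4 moved more and 1 gained a call, Myh11 with the block. The Tpm1 probe set called with the block is not among these. The spread between replicates holds the difference between the array numbers, so large shifts could still count as kept, above all for Actg2. With 0 calls in the main fit, keeping the side of the threshold was also likely from the start. The tally therefore says little about how robust the values are. The causes were not tested. With 2 arrays a group and no detection calls, weak signals such as Des cannot be set against background.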

Other observations

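Some other smooth muscle genes also differed between the array numbers. Csrp2, a LIM protein of smooth muscle, had signals of 177 to 336 on the arrays numbered 2 and 1617 to 2591 on those numbered 1 (log2 difference -2.99, adjusted p = 3.83e-06). Kcnmb1, the accessory subunit of the calcium-activated potassium channel of smooth muscle, had 749 to 1030 with AF020712_at on the arrays numbered 2 and 1802 to 1946 on those numbered 1 (-1.14, adjusted p = 0.000503). Fhl2, a LIM cofactor of serum response factor, ran the other way, with 601 to 1781 on the arrays numbered 2 and 45.4 to 242 on those numbered 1 (2.87, adjusted p = 0.000107). Each of the 3 kept its order in all 4 groups, since the ranges do not overlap. In the list of other smooth muscle differentiation genes, 3 of 21 probe sets were higher on number 2 and 5 were lower, where 13.3% and 8.42% of all kept probe sets were. These genes were named after their values were seen.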
